A study of Mus musculus with 10 samples.

Results

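The HoxC cluster is a row of homeobox genes on mouse chromosome 15. Its 9 Hoxc genes, Hoxc13, Hoxc12, Hoxc11, Hoxc10, Hoxc9, Hoxc8, Hoxc6, Hoxc5 and Hoxc4, lie in that order along the chromosome. All cytosine positions of the deposited methylation table in an interval of 125 kb were taken, from 6131 bp before the lower end of Hoxc13 (102921131, mm10) to 3144 bp past the upper end of Hoxc4 (103036856), by position alone and without regard to their level. There were 1044 such positions among 2137824 in the table, 503 on the plus strand and 541 on the minus strand, at 730 distinct CpGs. The study compared 5 control samples with 5 arsenic samples of mouse embryos at embryonic day 7.5 by reduced representation bisulfite sequencing, a method that reads cytosine methylation in CpG-rich fragments of the genome. The labels used here give no strain, sex, dose, time of exposure or number of embryos per sample, and do not say which parts of the embryo were taken. The table holds no expression, so the tissue could not be checked against marker genes. Its counts come as 10 numbered library columns, as many as the samples, and no number names a group. Values are therefore given over all 10 columns, and the arsenic and control groups were not compared.

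Hox genes encode homeodomain transcription factors that give cells their position along the head-to-tail axis. The genes of a cluster are transcribed in the same direction and are switched on in the order in which they lie, the Hoxc4 side first and further forward in the body, the Hoxc13 side later and further back. In early embryos Hox clusters are known as broad domains held by Polycomb repressor complexes, with many CpG islands that lack DNA methylation. At embryonic day 7.5 the first Hox genes come on in the posterior part of the gastrulating embryo. Bisulfite reads do not tell methylcytosine from hydroxymethylcytosine. In a sample of many cells, full methylation of some cells or alleles and partial methylation of all of them cannot be told apart.

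The RefSeq start windows below (GRCm38.p6, from 250 bases before to 50 after a start) are shown because they are the measured windows at Hoxc starts for which RefSeq sequence was given, with a paralogue for comparison. Of the 9 members, 1 had such a window, Hoxc4. The window of the long non-coding RNA Gm29905, on the opposite strand, covers the lower end of Hoxc6. Hoxd4, the Hoxc4 paralogue of the HoxD cluster, was added after its level was seen. Each is written 5′ to 3′ on the strand of its own gene, and capitals mark the CpGs measured in all 10 columns.
Hoxc4 (chr15:103034145-103034444, plus strand): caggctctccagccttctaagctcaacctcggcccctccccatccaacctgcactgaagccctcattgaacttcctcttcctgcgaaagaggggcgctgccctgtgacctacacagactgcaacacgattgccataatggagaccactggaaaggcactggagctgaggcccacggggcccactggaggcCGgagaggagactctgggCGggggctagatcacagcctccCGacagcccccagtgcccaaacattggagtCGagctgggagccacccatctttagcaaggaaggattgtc
Gm29905 and Hoxc6 (chr15:102998118-102998417, minus strand): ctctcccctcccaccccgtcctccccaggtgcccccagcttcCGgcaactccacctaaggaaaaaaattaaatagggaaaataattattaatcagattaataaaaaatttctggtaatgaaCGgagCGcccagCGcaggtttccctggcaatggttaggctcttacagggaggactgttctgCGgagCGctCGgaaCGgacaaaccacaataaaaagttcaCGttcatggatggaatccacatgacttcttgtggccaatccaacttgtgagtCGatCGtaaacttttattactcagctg
Hoxd4 (chr2:74721728-74722027, plus strand): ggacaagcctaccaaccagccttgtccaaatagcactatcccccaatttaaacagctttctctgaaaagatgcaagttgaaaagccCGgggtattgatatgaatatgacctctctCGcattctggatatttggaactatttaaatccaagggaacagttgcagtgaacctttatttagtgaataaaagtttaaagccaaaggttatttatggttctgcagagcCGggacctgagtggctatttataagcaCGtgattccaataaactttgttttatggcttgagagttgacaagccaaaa

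In the Hoxc4 window 4 of 9 CpGs were measured, all close to the start. Their level, the share of methylated calls among all calls, was 17.4% over 1584 calls (95% Wilson interval 15.6 to 19.4%), with a lowest column of 7.21%, a median of 15.5% and a highest of 31.3%. From the 5′ end the 4 CpGs stood at 24.2%, 12.1%, 18.2% and 18.5%. In the window shared by Gm29905 and Hoxc6, 11 of 12 CpGs were measured and the level was 8.29% over 13010 calls (interval 7.83 to 8.78%, columns from 4.39% to 10.5%). The first of its capitals had 19.4%, the fourth 1.69%. Neighbouring CpGs of these starts thus differed in level, and none of the 15 reached 25%. The Hoxd4 window holds 4 CpGs, all measured, with a level of 23.7% (interval 22.7 to 24.7%, columns from 20.6% to 27.0%) and single CpGs from 14.01% to 37.3%. The sequence CCGG, the same on both strands, occurs 1 time in the Hoxc4 window, 1 time in that of Gm29905 and 2 times in that of Hoxd4, and in 52.8% of all 32851 RefSeq start windows. Intervals here and below cover counting error only and take each call as independent, although a read gives a call at each position it covers.

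The HoxC cluster as a whole had a methylation level of 12.7% (interval 12.6 to 12.8%, 473789 calls). Its lowest column stood at 12.0%, the median at 12.8% and the highest at 13.6%, so the columns lay close together. All autosomal positions together had a level of 42.2%, with columns from 40.2% to 44.5%. No column of the cluster overlapped these. Of 355 autosomal windows of 125 kb on a fixed grid with at least 500 measured positions, 6 had a lower level than HoxC, and their median was 30.4%. The median coverage of a HoxC position ranged from 24 reads in column 3 to 50 reads in column 1, and the summed calls from 32213 to 61108 per column. Both the level in the cluster and the depth differed between columns. The 2 columns with the fewest median reads, 3 with 24 and 9 with 29, had the highest cluster levels, 13.6% and 13.5%, and the part of depth in this was not tested. With each position weighted equally, column 9 stood at 12.4%, inside the range of the other columns, and column 3 remained the highest at 13.1%. Over all autosomal positions, by summed calls, column 9 was highest at 44.5%, then column 10 at 43.9% and column 3 at 43.3%. Column 6 was lowest both in the cluster and on the autosomes.

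The low mean of the cluster did not come from fully unmethylated positions alone. Positions under 5% made up 27.9% of HoxC and 26.5% of the autosomes, nearly the same share. The difference lay above that: 20.8% of HoxC positions had a level from 5 to 10%, 29.7% from 10 to 20% and 19.8% from 20 to 40%, against 4.34%, 3.95% and 8.44% of autosomal positions. No HoxC position exceeded 60%, whereas 25.2% of autosomal positions stood from 60 to 80% and 10.4% above that. Low, but not absent, methylation was therefore the common state of the cluster. The HoxC position with the highest level, on the minus strand at 102938787 just past the upper end of Hoxc12, had 56.0% over 216 calls (interval 49.4 to 62.5%), with columns from 34.8% to 84.6%. Only 3 positions were above 50%. The others lay in Hotair (102945576, 54.4%) and between Hotair and Hoxc11 (102950821, 51.5%). At 314 CpGs with both strands measured, the mean was 11.5% on each strand, the median absolute difference between strands was 2.02 percentage points, and 6 CpGs differed by more than 10 points.

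The interval was cut into 125 tiles of 1000 bp. A position was measured in 61 of them, and 55 held at least 3 positions, 1034 in all. Of these 55 tiles, 41 (74.5%) had a level under 20%, 14 stood from 20 to 80% and none above 80%. Over all 180573 autosomal tiles, 13.9% were under 20% and 7.35% above 80%. Very low tiles were as common in the cluster as elsewhere: 5 of 55 tiles (9.09%) were under 5%, against 8.93% of autosomal tiles. The other 50 (90.9%) had a level from 5 to 33%, limits set after the levels were seen, against 8.99% of autosomal tiles. The other Hox clusters shared this trait, with 76.8% of HoxA, 84.1% of HoxB and 76.7% of HoxD tiles from 5 to 33%.

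**Figure D1:**
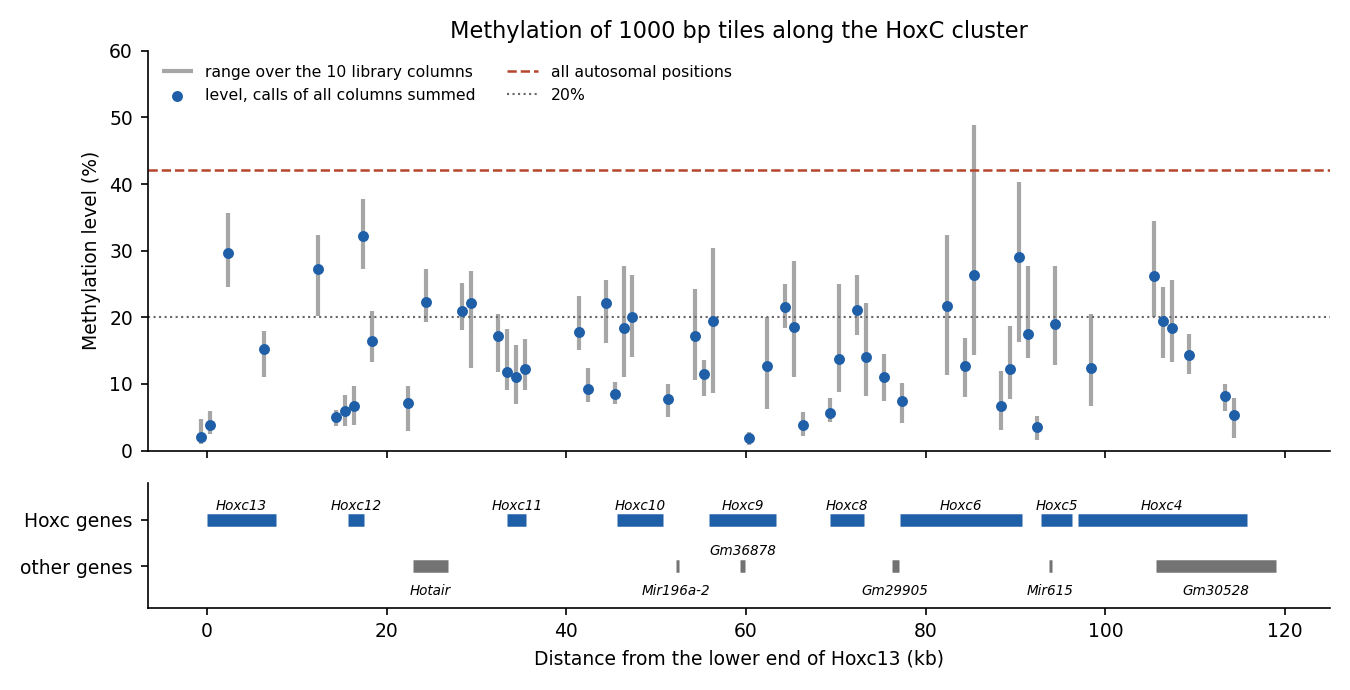
Methylation level (%) of the 55 tiles of 1000 bp with at least 3 positions against distance from the lower end of Hoxc13 in kb. Points are the level over the summed calls, grey bars the range over the 10 library columns, and the bars below mark genes (Gm30528 runs on to the right). All points lie from 1.90% to 32.2%, under the autosomal level of 42.2%, and low tiles alternate with tiles above 20% along the cluster.

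Tiles above and below 20% alternated along the cluster, with abrupt steps. At Hoxc13, the rearmost gene, whose product is needed for hair and nail formation, the tile before the gene (102920000 to 102920999) had 2.03% and the tile of its lower end 3.82%, with columns from 2.56% to 5.88%. The tile from 102923000 inside the gene had 29.6% over 3 positions, with columns from 24.5% to 35.6%, and that from 102927000 had 15.3%. The columns of the tiles from 102921000 and 102923000, 2 kb apart, did not overlap. Hoxc12, which lies next, had 6.01% and 6.66% in its first tiles and then 32.2% in the tile from 102938000 to 102938999, which holds its upper end and had the highest level of all (interval 31.1 to 33.4%, 6057 calls). There the columns ranged from 27.2% in column 5 to 37.8% in column 3. In the adjoining tile before it, from 102937000, they did not exceed 9.65%. In the adjoining tile after it, from 102939000, the level was 16.5%, with columns from 13.4% to 20.9%. Between Hoxc13 and Hoxc12 the tile from 102933000 had 27.2% (columns from 20.2% to 32.3%). The tiles at 102923000, 102933000, 102938000 and 103026000, the last with 26.1% inside Hoxc4, were the 4 that stayed at 20% or more in each of the 10 columns.

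The lowest tile of the cluster lay inside a gene. The tile from 102981000 to 102981999, within Hoxc9 and over the start of the non-coding RNA Gm36878, had 1.90% over 25 positions (interval 1.60 to 2.26%, columns from 0.781% to 2.73%). Between Hoxc9 and Hoxc8 the tile from 102987000 had 3.90% over 20 positions, while the tiles from 102985000 and 102986000 before it had 21.6% and 18.5%. The tile before Hoxc5 (103013000 to 103013999) had 3.51%, and its columns from 1.65% to 5.22% lay apart from those of the tile from 103015000 inside Hoxc5, 12.8% to 27.7%, whose level was 19.0%. Low tiles were thus found inside and between genes as well as at gene ends. Hotair, a long non-coding RNA that lies between Hoxc12 and Hoxc11, had 22.3% in its measured tile, over 22 positions and 26265 calls, with columns from 19.3% to 27.2%.

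In the middle and on the Hoxc4 side, how far the tiles of a gene differed varied from gene to gene. The 3 tiles of Hoxc11 stood between 11% and 12.2%. Those of Hoxc10 ranged from 8.48% to 20.01%, of Hoxc9 from 1.90% to 19.5%, of Hoxc8 from 5.69% to 21.1% and of Hoxc6 from 6.73% to 29.1%. Hoxc5 had a single measured tile. Of the 7 tiles that overlap Hoxc4, 6 were under 20%, with a range from 5.34% to 26.1%. Each Hoxc gene had at least 1 tile under 20%, and the 20 measured tiles outside any gene had a median of 16.8% and a range from 2.03% to 27.2%.

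The upstream ends of the Hoxc genes were all low in methylation. RefSeq gave a start for Hoxc4, at 103034395, which lies inside the gene as listed (103018097 to 103036856). No position was measured within 1000 bp of the lower end of Hoxc4, so this inner start was used. For the other 8 genes the gene table used has no strand, and the lower end was taken as the upstream one, from the shared direction of the cluster and the plus strand of Hoxc4. Within 1000 bp of these 9 sites the levels ranged from 3.34% to 11.9%, with a median of 7.31%, and each site was under 20% in each of the 10 columns. This by itself was common: 83.6% of 10962 measured autosomal protein-coding genes with a RefSeq start were under 20%. Most of these were lower, however, with a median of 2.16%. Levels from 5 to 20% were found at 7 of the 9 Hoxc sites and at 17.5% of the autosomal starts, limits again set after the levels were seen.

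**Figure D2:**
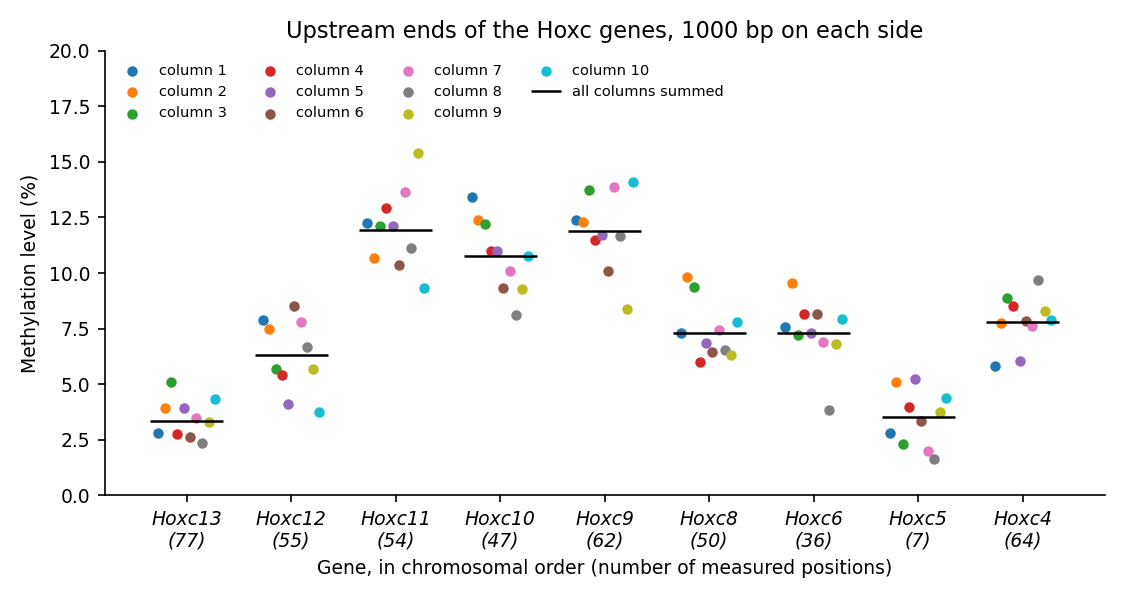
Methylation level (%) within 1000 bp of the upstream end of each Hoxc gene, in chromosomal order, with the number of measured positions in brackets. The site of Hoxc4 is its RefSeq start. Coloured points are the 10 library columns and black lines the level over the summed calls. Hoxc13 and Hoxc5 are lowest, at 3.34% and 3.51%, and Hoxc11, Hoxc9 and Hoxc10 highest, from 10.8% to 11.9%.

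The ends of the gene row did not stand at opposite ends of the scale. Hoxc13 had the lowest level, 3.34% (interval 3.14 to 3.55%, 77 positions, 102920131 to 102922131), with columns from 2.34% over a median of 3.41% to 5.12%. Hoxc5, which acts at the level of the neck, had 3.51% over only 7 positions (interval 3.02 to 4.07%), with columns from 1.65% to 5.22%. The column ranges of Hoxc13 and Hoxc5, next to each other in level but not on the chromosome, overlapped almost completely. Hoxc12 followed at 6.29%, with a lowest column of 3.76%, a median of 6.18% and a highest of 8.50%. Hoxc8, which specifies motor neurons that serve the forelimb, had 7.29% (columns from 5.99% over 7.06% to 9.80%), Hoxc6 had 7.31% (columns from 3.85% over 7.44% to 9.54%) and Hoxc4, the foremost gene, 7.81% (columns from 5.83% over 7.86% to 9.70%). The ranges of these 4 genes overlapped, so their order was not resolved. The highest levels lay in the middle of the posterior genes. Hoxc10, which acts at the level of the hindlimb, had 10.8% (columns from 8.09% over 10.9% to 13.4%). Hoxc9, which defines the thoracic level of motor neurons, had 11.9% (interval 11.5 to 12.3%, columns from 8.36% over 12.0% to 14.1%), and Hoxc11 had 11.9% (columns from 9.33% over 12.1% to 15.4%). Each column of Hoxc11, Hoxc9 and Hoxc10 stood above each column of Hoxc13 and Hoxc5. In column 8, Hoxc13, Hoxc10, Hoxc6 and Hoxc5 had their lowest levels and Hoxc4 its highest.

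The upper ends of the genes, the 3′ side, were measured at 6 of the 8 genes without a RefSeq start and were higher at 5 of them. Hoxc12 had 6.29% at its lower end and 32.2% at its upper end. The same pair of values was 11.9% and 23.0% for Hoxc9 (upper end 3 positions, columns from 17.0% to 28.3%), 7.29% and 19.0% for Hoxc8, and 7.31% and 19.9% for Hoxc6. For Hoxc12, Hoxc9, Hoxc8 and Hoxc6 the columns of both ends did not overlap. At Hoxc11 the ends stood at 11.9% and 13.3%, and their columns overlapped. Hoxc10 went the other way, with 7.78% at its upper end and overlapping columns, in a window whose 22 measured positions also lie within 1000 bp of the lower end of Mir196a-2. Of the 15 windows with at least 3 positions, counting both ends of 8 genes and the start of Hoxc4, 13 were under 20%. This was near the 83.6% of autosomal protein-coding starts under 20%, a share that covers starts only. Upper ends were not measured over all genes.

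The non-coding genes of the cluster spanned the same range. Mir196a-2 encodes a microRNA known to act on Hox transcripts. No position was measured inside its hairpin, and within 1000 bp of its lower end the level was 7.78% (columns from 5.11% to 10.1%). Mir615, inside Hoxc5, had no measured position in its hairpin either and 18.8% around its lower end (columns from 12.97% to 28.3%). The start of Gm36878 stood at 1.90% and that of Gm29905 at 7.31%. The Gm29905 window holds the same 36 positions as that of Hoxc6. Gm30528, a non-coding RNA on the minus strand that overlaps Hoxc4 and runs past the interval, had 21.8% at its outer start, where 60 positions were measured beyond the interval, and no measured position around its 3 starts inside Hoxc4.

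Distance from a gene start changed the level less in HoxC than over the autosomes. Within 250 bp of the nearest upstream end HoxC positions had a level of 6.99% (columns from 5.79% to 8.03%), and positions near autosomal protein-coding RefSeq starts 3.87% (3.61% to 4.22%), so that HoxC was higher there in each column. Beyond 500 and up to 1000 bp they were alike, at 11.5% and 11.9%. Further out the order turned. Beyond 1000 and up to 2000 bp HoxC had 15.9% (columns from 13.9% to 18.2%) and the autosomes 29.9% (28.6% to 31.6%). Beyond 2000 and up to 5000 bp HoxC had 13.7% (columns from 13.2% to 14.6%) and the autosomes 46.5% (45.0% to 48.4%). Beyond 5000 bp the values were 18.9% (16.3% to 22.0%) and 52.1% (50.3% to 54.1%). The sites of HoxC are gene ends for 8 genes, those of the autosomes RefSeq starts, so the bins are alike only in distance.

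**Figure D3:**
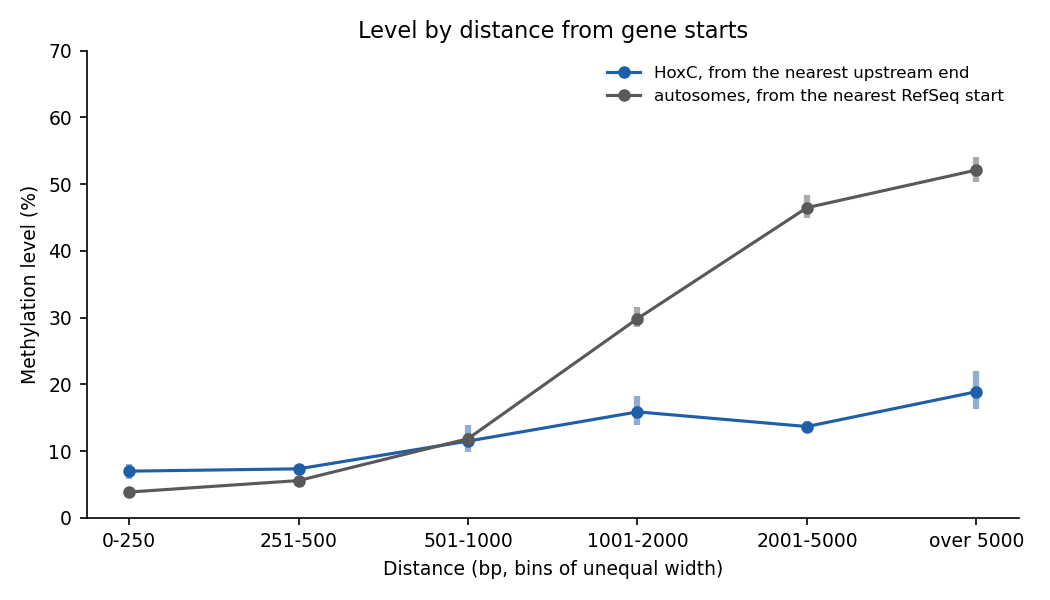
Methylation level (%) by distance in bp from the nearest Hoxc upstream end (blue) or the nearest autosomal protein-coding RefSeq start (grey), in bins of unequal width, with the range over the 10 library columns as bars. The autosomal level climbs from 3.87% to 52.1%, that of HoxC lies from 6.99% to 18.9% and is lower in the fifth bin, at 13.7%, than in the fourth, at 15.9%.

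Positions were also split by gene context. HoxC positions within 1000 bp of a Hoxc gene end had 10.2% (columns from 9.04% to 10.9%), those inside Hoxc genes but away from the ends 14.3% (12.8% to 15.3%), and those between Hoxc genes 15.03% (14.1% to 16.9%). The gene ends did not overlap the other classes, which overlapped each other. Ends here were those of the gene table, and neither end of Hoxc4 had a measured position. The 64 positions around the RefSeq start of Hoxc4, at 7.81%, were therefore counted as inside and lowered the level of that class. The order of the inside and between classes was thus not resolved. On the autosomes the same classes, with protein-coding genes in place of Hoxc genes, had 10.9%, 52.6% and 50.6%. The cluster thus stood near other genes at its gene ends and below them inside and between genes.

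Isolated positions of the cluster were also low. With no more than 5 measured positions inside 100 bp, counting itself, 164 HoxC positions had 19.4% (columns from 18.1% to 20.4%), against 56.8% on the autosomes (54.8% to 59.0%). With 6 to 15 positions the levels were 13.5% and 48.1%. With more than 15 they were 8.55% (7.90% to 9.88%) and 13.7% (12.8% to 15.1%). Denser classes had lower levels in HoxC as on the autosomes, over a smaller span. Of HoxC positions 36.9% were in the densest class, against 25.7% of autosomal ones.

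**Figure D4:**
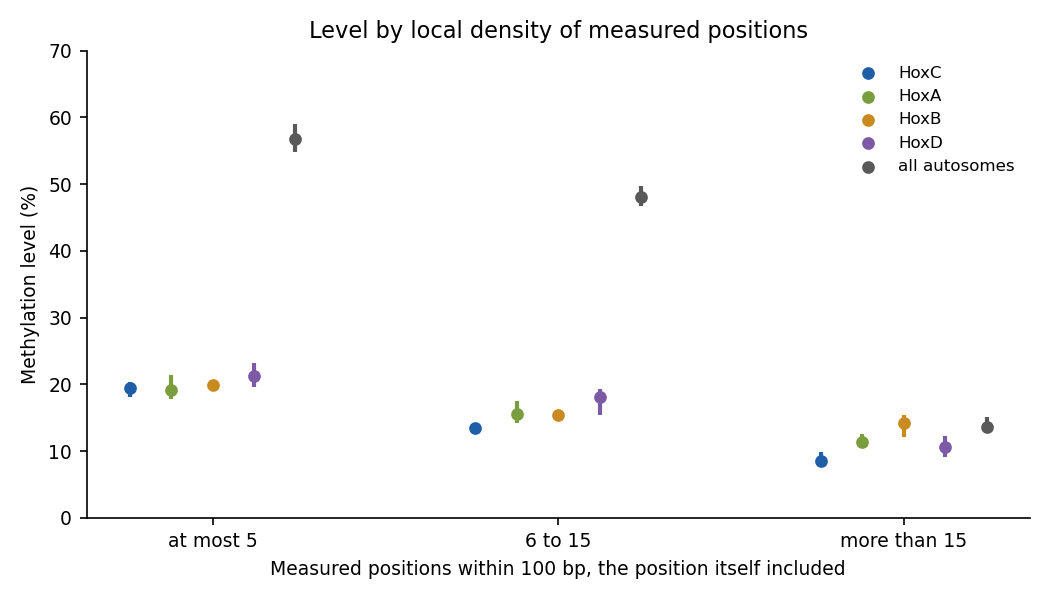
Methylation level (%) in 3 classes of local density of measured positions for the 4 Hox clusters (colours) and all autosomal positions (grey), with the range over the 10 library columns as bars. In the sparsest class the Hox clusters lie from 19.2% to 21.3% and the autosomes at 56.8%.

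The low level continued past the interval on the Hoxc4 side. In the 100 kb after it, 175 positions had 25.2% (columns from 23.0% to 28.5%), and in the 100 kb before it, 64 positions had 54.7% (52.1% to 57.2%). The nearest tiles above 50% were at 102875000 to 102875999, with 58.9% over 16 positions, and at 103103000 to 103103999, with 53.1% over 6 positions. Between them, over 227 kb, all 65 tiles with at least 3 positions were at or under 32.6%. Of the 39 kb before the interval only 1 tile was measured, from 102910000, with 9.29% over 4 positions, so the border on the Hoxc13 side was not resolved.

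The other Hox clusters, measured from 6000 bp before their first to 6000 bp after their last Hox gene, had similar levels. HoxA on chromosome 6 had 14.2% (columns from 13.3% to 15.8%), HoxD on chromosome 2 had 15.04% (13.03% to 16.3%) and HoxB on chromosome 11 had 15.8% (14.8% to 16.5%). HoxC was lowest, with columns from 12.0% to 13.6% that overlapped those of HoxA and HoxD but not those of HoxB. Column 9 was the lowest column in HoxA and HoxD and the highest in HoxB, and among the higher ones in HoxC. The share of tiles under 20% was 74.5% in HoxC, 67.9% in HoxA, 63.8% in HoxB and 62.8% in HoxD. The highest tile reached 32.2% in HoxC, 49.6% in HoxA, 45.7% in HoxD and 69.7% in HoxB. Within each library column, HoxC was lower than HoxB in 10 of 10 columns and lower than HoxA and than HoxD in 9 of 10, all but column 9. These counts are a description with no test, since the columns are not known replicates of a group.

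The Hoxc starts were all low, whereas some starts of the other clusters were not. All 9 Hoxc sites were under 20%, and 22 of 28 measured sites of HoxA, HoxB and HoxD, with medians of 7.31% and 8.60%. The kinds of site differed. They were RefSeq starts for 1 of 9 HoxC genes and for 21 of 30 genes of the other clusters, and gene ends otherwise. In group 4, Hoxc4 at 7.81% stood between Hoxb4 at 2.77% and Hoxa4 at 10.03%, below Hoxd4 at 21.0% (columns from 19.1% to 23.3%). In the shorter start windows printed above, the columns of Hoxc4, from 7.21% to 31.3%, enclosed those of Hoxd4. In group 12, Hoxc12 had 6.29% and Hoxd12 26.8% (22.2% to 31.8%). With 1000 bp on each side, the columns of Hoxc4 and Hoxd4 did not overlap, nor did those of Hoxc12 and Hoxd12. In group 9 the order was reversed for HoxB and HoxD: Hoxc9 had 11.9%, Hoxb9 3.31% and Hoxd9 4.61%, while Hoxa9 had 19.6%. In group 10 Hoxc10 had 10.8%, Hoxa10 3.48% and Hoxd10 7.44%, and in group 11 Hoxc11 had 11.9%, Hoxa11 6.18% and Hoxd11 9.60%. In group 5, Hoxc5 had 3.51% and Hoxa5 7.33%. In group 6, Hoxc6 had 7.31%, Hoxb6 13.4% and Hoxa6 18.8%. In group 8, Hoxc8 had 7.29%, Hoxb8 7.98% and Hoxd8 0.908%. In group 13, Hoxc13 at 3.34% and Hoxa13 at 3.83% were alike, below Hoxd13 at 7.33% and Hoxb13 at 8.81%. No cluster was lowest or highest in all groups.

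**Figure D5:**
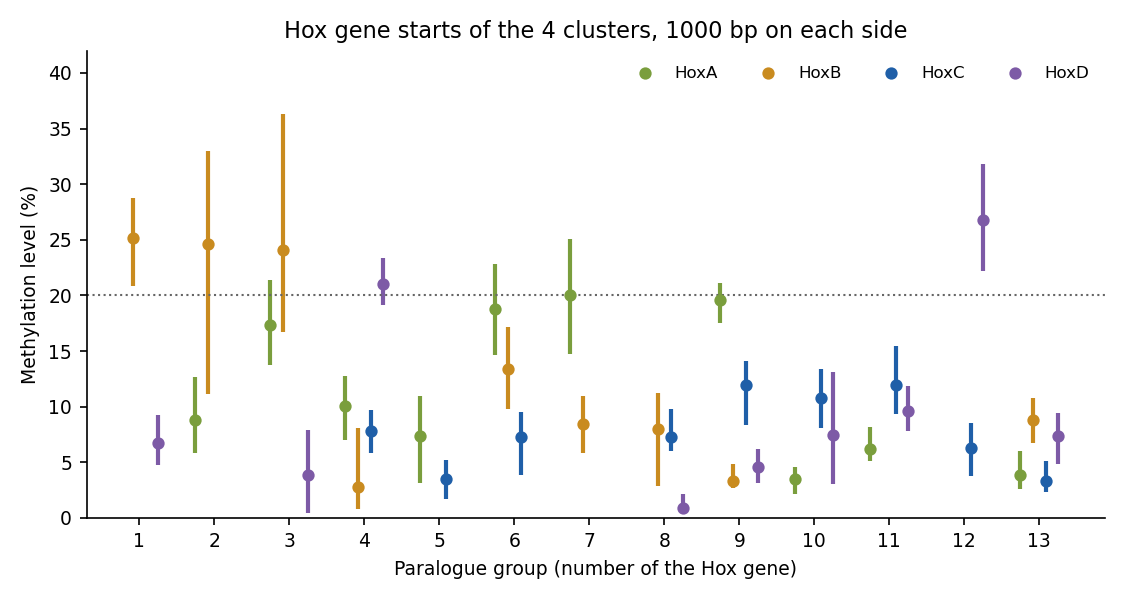
Methylation level (%) within 1000 bp of the start or upstream end of the Hox genes with at least 3 measured positions, by paralogue group, with the range over the 10 library columns as bars. HoxC points (blue) lie from 3.34% to 11.9%, under the dotted line at 20%, which 6 points of the other clusters exceed.

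Genes that work with Hox proteins or set their expression were also looked at. They were the Pbx, Meis and Pknox cofactors, Cdx and retinoic acid genes, Gdf11, Kmt2a and the Polycomb genes Bmi1, Ezh2, Eed and Suz12. Of 22 listed genes 21 were measured, 16 at a RefSeq start and the others at the gene end with more positions, and all 21 were under 20%, with a median of 1.66%. Over all measured autosomal protein-coding starts 83.6% were under 20%, with a median of 2.16%. Bmi1 was lowest at 0.584% (columns from 0.302% to 1.09%) and Rarg, a retinoic acid receptor, highest at 11.2% (8.80% to 13.96%). Levels from 5 to 20%, where 7 of the 9 Hoxc starts lay, were found at 6 of the 21, namely Meis2, Pknox2, Cdx1, Rara, Rarb and Rarg, and at 17.5% of all autosomal starts.

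The range over the columns had a median of 8.83 percentage points over the 55 tiles, from 1.95 to 34.6 points, and of 16.8 points over autosomal tiles. For tiles with a level from 5 to 33% it was 8.96 points in HoxC and 11.8 points on the autosomes. The HoxC tiles were also deeper, with a median of 6027 calls against 3091 on the autosomes. For tiles from 5 to 33% these medians were 5932.5 and 4298.5 calls. The part of depth in the ranges was not tested. The widest was the tile from 103006000 inside Hoxc6, from 14.3% in column 3 to 48.9% in column 9, which rests on 3 positions and 474 calls. Next came the tile from 103011000 at the end of Hoxc6, from 16.3% in column 5 to 40.4% in column 2, the tile of the lower end of Hoxc9 from 102977000, from 8.64% in column 6 to 30.4% in column 5, that from 103003000 inside Hoxc6, from 11.3% in column 3 to 32.4% in column 4, and that from 102986000 between Hoxc9 and Hoxc8, from 11.01% in column 5 to 28.5% in column 7. These 5 tiles held from 3 to 8 positions, and no single column was the high or low one in all of them. The chi-square of methylated against unmethylated calls over columns, per degree of freedom, had a median of 4.20 in HoxC tiles and 4.08 in autosomal tiles. For tiles from 5 to 33% the chi-square per degree of freedom was 4.19 in HoxC and 4.20 on the autosomes. Of the 55 tiles, 26 were under 20% in each column, 4 were at or above 20% in each, and 25 had columns on both sides.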

How the data were processed

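Bisulfite reads of 10 embryo samples were processed by the authors with Trim Galore, Bismark and methylKit on the build mm10, per the submitters' processing notes. Versions and settings were not given in the sources used here. Raw counts were deposited: covering reads, methylated and unmethylated calls per position for 10 numbered columns, per the file headers. Both calls add up to the coverage, and each column has at least 10 reads at each position, as checked on the table. The table lists only positions covered in all columns. Column numbers match no single sample title, so all 10 stayed unmapped and no test between groups was run. None of the 45 column pairs held identical calls in the cluster.

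Of 2137826 rows, 2 repeated a position and were left out. Levels are methylated calls divided by coverage, summed over positions and columns, in percent, with a 95% Wilson interval and the median and range over columns. Tiles and windows needed at least 3 positions. Genes came from the RefSeq table of GRCm38.p6, the assembly of mm10, and starts from its start windows, where 168085 of 168091 measured positions fell on a CpG of their strand. For genes with several RefSeq starts, the one with most measured positions was used, and for cofactors without one, the gene end with most. The members and gene lists, and the rule for naming genes (all genes of the interval, the 5 highest, lowest and most variable tiles, fixed lists of paralogues and cofactors) were chosen with earlier results of these data known. Tile and spread calculations were tested on simulated counts. Python 3.11.15, numpy 2.4.6, scipy 1.17.1, pandas 2.3.3 and matplotlib 3.10.9 were used. Alternatives covered the coverage minimum, the most covered positions, weighting, strand, tile and window size, borders and leaving out columns.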

Additional observations from a re-analysis of the deposited data

Results flagged for a closer look

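Among 26 measures of the cluster (the whole interval, classes of location, upstream ends and named tiles), Dixon's test for 10 values set a column apart in 1. This was the upstream end of Hoxc6, where column 8 had a level of 3.85% and the other columns lay from 6.82% to 9.54%. The test flags about 1 in 20 separate measures by chance, but these 26 were not separate. The upstream end of Hoxc5 and the tile from 103013000 held the same 7 positions, and some tiles were named for their wide range over columns. The rate therefore does not apply directly to this count. The group of column 8 is not known. In the same column the windows of Hoxc4, at 9.70%, and Hoxc5, at 1.65%, were the highest and the lowest of their genes but did not lie apart.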

How the results depend on the processing

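The cluster level of 12.7% ranged from 12.07% to 12.94% over the alternatives. It was 12.63% with at least 20 reads in every column, 12.07% without the 1% most covered positions, 12.54% as a mean over positions, 12.94% from the first to the last base of the Hoxc genes, 12.91% on the plus and 12.59% on the minus strand, and 12.67% to 12.83% with each column left out in turn. Without columns 3 and 9, a choice made after seeing the data, it was 12.60%. The share of tiles under 20%, 74.5%, ranged from 66.7% with tiles of 2000 bp to 79.1% with at least 20 reads, and from 72.7% to 76.4% with each column left out. The share of gene starts and ends under 20%, 86.7%, ranged from 80% to 100%. No paired analysis was possible because no column could be tied to a sample, so the numbers shared by control and arsenic titles could not be used, and the planned comparison of the groups was not run. The 5 tiles with the widest ranges over columns held 3 to 8 positions and from 474 to 2137 calls. Other tiles of few positions had narrower ranges. The tile from 103013000 had 3.57 points over 7 positions and 4678 calls. That from 102923000 had 11.1 points over 3 positions and 668 calls. The parts of depth and of the number of positions were not tested.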
